A study of Homo sapiens with 6 samples.

Results

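The zinc finger genes of human chromosome 19 were described in A431 cells, an epidermoid carcinoma line that carries many copies of the EGF receptor gene. Members were the genes with a probe set placed on chromosome 19 by its identifier and a symbol that began with ZNF and a digit. There were 237 such genes among 17687 named genes on the array, each with 1 probe set. The rule used no expression value, but it was chosen with earlier results of these data known. Of the 237 members, 232 were annotated as protein coding, 3 as long noncoding RNA (among them the antisense transcript ZNF529-AS1) and 2 as transcribed pseudogenes, ZNF321P and ZNF833P. For comparison stood the 255 ZNF genes on other chromosomes and the 1019 other named genes of chromosome 19.

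RNA was measured in 6 samples, 2 per group and 1 array per sample. EGF plus gefitinib cells received 100 ng/ml EGF and 10 µM gefitinib, an inhibitor of the EGF receptor kinase, and EGF cells received 100 ng/ml EGF alone. Control cells received neither agent. All groups had been grown with 10% serum and starved for 24 h, harvest was at 30 min after treatment per the labels, and the sources used here do not state the order of additions. Samples carry biological replicate numbers, but nothing says that they came from separate cultures, so p-values reflect the spread between these samples alone, which may be technical.

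C2H2 zinc finger proteins bind DNA through tandem arrays of small zinc-coordinating fingers, and on chromosome 19 their genes lie in large clusters that arose by repeated local duplication. Most of the clustered genes carry a KRAB domain, which recruits the corepressor TRIM28 and, through it, the histone methyltransferase SETDB1, HP1 proteins and histone deacetylase complexes. Many of these proteins bind and silence transposable elements, and several of the youngest ones are known from primates alone.

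Promoter windows of members are shown first because the members that moved include close relatives from 1 cluster. The windows run from 250 bases before to 50 bases after the annotated start and come from RefSeq on GRCh38.p14, 5′ to 3′ on the gene's own strand. ZNF611 (chr19:52734995-52735294, minus strand), ZNF808 (chr19:52527418-52527717, plus strand) and ZNF845 (chr19:53333499-53333798, plus strand) are relatives that were higher with gefitinib. ZNF460 (chr19:57279732-57280031, plus strand), from another cluster, was also higher, and ZNF562 (chr19:9675051-9675350, minus strand) was lower. Capitals mark matches to the searched motifs, which in these windows were SP/KLF (GGGGCGGGG or its reverse complement CCCCGCCCC), AP-1 (TGANTCA), E-box (CACGTG), ETS (CCGGAAGT) and CRE (TGACGTCA).
ZNF611: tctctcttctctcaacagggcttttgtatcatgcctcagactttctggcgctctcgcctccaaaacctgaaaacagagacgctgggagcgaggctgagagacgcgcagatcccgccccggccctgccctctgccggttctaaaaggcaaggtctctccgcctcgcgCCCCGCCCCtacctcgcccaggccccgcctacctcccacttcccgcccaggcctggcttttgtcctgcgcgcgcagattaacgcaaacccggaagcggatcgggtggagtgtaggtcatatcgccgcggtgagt
ZNF808: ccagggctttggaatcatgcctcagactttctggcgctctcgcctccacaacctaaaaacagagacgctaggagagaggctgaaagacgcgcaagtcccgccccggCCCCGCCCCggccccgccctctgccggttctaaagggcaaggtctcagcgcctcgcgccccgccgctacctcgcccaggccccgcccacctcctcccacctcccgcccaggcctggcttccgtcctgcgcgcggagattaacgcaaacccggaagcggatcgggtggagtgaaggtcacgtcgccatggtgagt
ZNF845: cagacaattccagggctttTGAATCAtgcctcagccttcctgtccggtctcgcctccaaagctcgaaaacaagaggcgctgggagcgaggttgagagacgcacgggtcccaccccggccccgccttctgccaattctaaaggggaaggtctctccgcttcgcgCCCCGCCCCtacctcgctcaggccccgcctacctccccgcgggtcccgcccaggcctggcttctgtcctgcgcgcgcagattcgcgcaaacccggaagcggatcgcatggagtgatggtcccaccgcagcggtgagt
ZNF460: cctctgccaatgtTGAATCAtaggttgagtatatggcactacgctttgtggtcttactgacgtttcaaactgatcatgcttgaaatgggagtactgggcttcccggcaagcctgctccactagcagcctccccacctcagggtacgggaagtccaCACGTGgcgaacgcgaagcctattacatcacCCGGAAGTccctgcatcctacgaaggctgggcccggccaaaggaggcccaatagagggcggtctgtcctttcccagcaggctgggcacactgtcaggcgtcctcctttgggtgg
ZNF562: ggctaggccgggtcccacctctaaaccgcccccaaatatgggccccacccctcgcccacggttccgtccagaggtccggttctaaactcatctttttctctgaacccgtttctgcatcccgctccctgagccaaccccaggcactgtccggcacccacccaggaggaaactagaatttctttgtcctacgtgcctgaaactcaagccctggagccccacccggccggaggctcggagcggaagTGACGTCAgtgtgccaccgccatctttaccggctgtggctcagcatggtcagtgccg

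The first 3 of these windows were 83.4% (ZNF611 and ZNF808), 83.1% (ZNF611 and ZNF845) and 78.8% (ZNF808 and ZNF845) identical, and each held an SP/KLF match, first letter at -84 in ZNF611, -144 in ZNF808 and -87 in ZNF845 from the start. ZNF845 also held an AP-1 match. ZNF460 held AP-1, E-box and ETS matches but no SP/KLF match, and ZNF562 held a CRE match that reached the start. The window of ZNF584, also lower with gefitinib and not printed here, held an SP/KLF match with its first letter at -140. It also held a match to the reverse complement of the ZNF143 motif (ACTACANNT) with its first letter at -49. A match describes the letters of the window and does not show that a factor binds there.

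Most members lay within the range of the negative controls. On each array the background limit was the 95th percentile of 612 negative-control probe sets, which ran from 7.14 to 7.65 on the log2 scale over the 6 arrays. By their mean over the 6 arrays, 43 of 237 members (18.1%) lay above the mean limit of 7.38. Members above the limit on all 6 arrays numbered 30, and 167 (70.5%) were above it on none. The limit cut through a populated range, with 6 members at most 0.25 above it and 14 at most 0.25 below it.

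The share above the limit was low on every array. It was 18.1% and 26.2% of members on the EGF plus gefitinib arrays, 16.5% and 17.3% on the EGF arrays, and 21.5% and 18.1% on the control arrays. Between 41.3% and 45.3% of the other named genes were above it on the same arrays, as were 29% to 36.9% of ZNF genes on other chromosomes and 32.3% to 37.1% of the other chromosome 19 genes. The second EGF plus gefitinib array stood highest for the members, and it did not for the other sets. In bulk RNA, fewer cells that express a gene and less RNA per cell cannot be told apart.

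Well-studied members were among those within the negative-control range. ZNF91 and ZNF93, which repress SVA and L1 retroelements, averaged 4.68 and 4.81 in EGF plus gefitinib cells, 4.34 and 4.76 in EGF cells, and 4.40 and 4.54 in control cells. ZNF274, which recruits SETDB1 to the ends of other zinc finger genes, averaged 5.24, 5.51 and 5.27 in the same order of groups. ZNF154, ZNF331, ZNF382, ZNF667 and ZNF675 were likewise at or below the limit on all 6 arrays. None of these 8 genes passed the test in any of the 3 comparisons (limma, Benjamini-Hochberg adjusted p of 0.12 or above).

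EGF plus gefitinib was set against EGF alone to ask what differed with gefitinib in stimulated cells. No group received gefitinib without EGF. ZNF114, ZNF480, ZNF490, ZNF460, ZNF776 and ZNF611 were about 2 to 3 times as high with gefitinib, and ZNF584 and ZNF562 were less than 0.5 times as high. Of the 237 members, 32 were called higher and 9 lower with limma at an adjusted p under 0.05, which is 13.5% and 3.8%. Over all 21448 transcript probe sets, 18.7% were called, 8.86% higher and 9.81% lower. The median log2 change was 0.18 over the members, 0.13 over ZNF genes on other chromosomes, 0.01 over the other chromosome 19 genes and 0.05 over all probe sets.

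These counts rested on all 6 arrays. Without EGF array 1 the members called higher came to 5 (2.11%, against 4.07% of all probe sets), and without EGF array 2 to 8 (3.38%, against 4.03%). Without EGF plus gefitinib array 1 they came to 16 (6.75%, against 5.92%), without EGF plus gefitinib array 2 to 13 (5.49%, against 5.45%), and without either control array to 24 (10.1%, against 7.45%). The share of members called higher was thus below that of all probe sets without an EGF array and about equal to it without EGF plus gefitinib array 2, whereas the median change of the members stayed between 0.16 and 0.21 in all 6 refits.

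ZNF114 had the largest rise. Its log2 level was 12.52 and 12.85 in EGF plus gefitinib cells, 11.15 on both arrays of EGF cells, and 10.17 and 10.44 in control cells. The 3 groups did not overlap, and the level was highest with both agents and lowest in control cells. The EGF plus gefitinib cells exceeded the EGF cells by 1.53 ± 0.20 (SE, n = 2 each; limma adjusted p = 0.00288), which is 2.89-fold. This call held without each of the 6 arrays in turn, with changes from 1.36 to 1.70.

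ZNF480 stood at 11.09 and 11.05 in EGF plus gefitinib cells, 9.97 and 9.63 in EGF cells, and 10.31 and 10.76 in control cells. EGF cells were the lowest group and the difference with gefitinib was 1.27 ± 0.22 (SE; limma adjusted p = 0.00875), or 2.41-fold. The call was lost without EGF array 2 (limma adjusted p = 0.062). ZNF490 stood at 9.74 and 9.32 in EGF plus gefitinib cells, 7.94 and 8.80 in EGF cells, and 9.35 and 9.38 in control cells. The pair of EGF arrays differed from each other by more than those of the other groups, and the rise of 1.16 ± 0.30 (limma adjusted p = 0.0371) was called in only 1 of the 6 refits that left out an array.

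ZNF460 had values of 10.18 and 10.54 in EGF plus gefitinib cells, 9.36 and 9.29 in EGF cells, and 9.46 and 9.23 in control cells, so EGF and control cells overlapped and gefitinib cells were above both. ZNF776 had values of 9.60 and 9.04 in EGF plus gefitinib cells, 8.18 and 8.38 in EGF cells, and 9.21 and 9.06 in control cells, where the EGF cells stood apart below the other groups. Both rose by 1.04 with gefitinib (limma adjusted p = 0.0122 for ZNF460 and 0.0215 for ZNF776). Most calls of genes named by rule were lost without at least 1 array. Such a refit leaves 1 array in a group, and fewer of all probe sets were called in it too. A lost call therefore does not set a gene apart. In this comparison the change in these refits ran from 0.86 to 1.21 for ZNF460 and from 0.86 to 1.07 for ZNF417. It ran from 0.86 to 1.45 for ZNF616 and from 0.76 to 0.96 for ZNF304.

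Members with known targets were among those that rose, of which ZNF611 and ZNF808 were picked from the called members after their values were seen. ZNF611, which binds SVA retroelements, had values of 10.88 and 11.13 in EGF plus gefitinib cells, 10.09 and 9.98 in EGF cells, and 10.49 and 10.48 in control cells, a change of 0.97 ± 0.18 with gefitinib (limma adjusted p = 0.0105). ZNF417, a repressor of HERV-K elements, had values of 8.68 and 8.47 in EGF plus gefitinib cells, 7.62 and 7.60 in EGF cells, and 8.27 and 8.31 in control cells, a change of 0.96 ± 0.18 (limma adjusted p = 0.00969). For both genes the groups were apart, with control cells between the others.

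ZNF808, whose loss is known to impair development of the human pancreas, was 8.80 and 8.88 in EGF plus gefitinib cells, against 8.08 and 7.83 in EGF cells (change 0.88 ± 0.19, limma adjusted p = 0.0174). ZNF304, a KRAB protein reported to silence the CDKN2A locus in colorectal cancer cells, was 8.02 and 8.01 in EGF plus gefitinib cells, and 7.05 and 7.25 in EGF cells, both below the limit. Its change was therefore at least 1.56-fold (limma adjusted p = 0.0145). ZNF350, a partner of BRCA1, was at least 1.36-fold higher (limma adjusted p = 0.0432), a call that was lost in every refit without an array. An "at least" fold set the brighter group's mean against the dimmer group's mean background limit, since a group with both arrays below the limit gives no more than an upper bound.

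ZNF616 was 7.82 and 8.41 in EGF plus gefitinib cells, 6.78 and 7.13 in EGF cells, and 7.03 and 7.36 in control cells, with EGF and control cells within the negative-control range. It was at least 1.67-fold higher with gefitinib than with EGF alone (limma adjusted p = 0.0221). The other called members above the limit were ZNF227, ZNF845, ZNF211, ZNF264, ZNF283, ZNF320 and ZNF841, with log2 changes from 0.63 (ZNF841) to 0.87 (ZNF227).

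**Figure D1:**
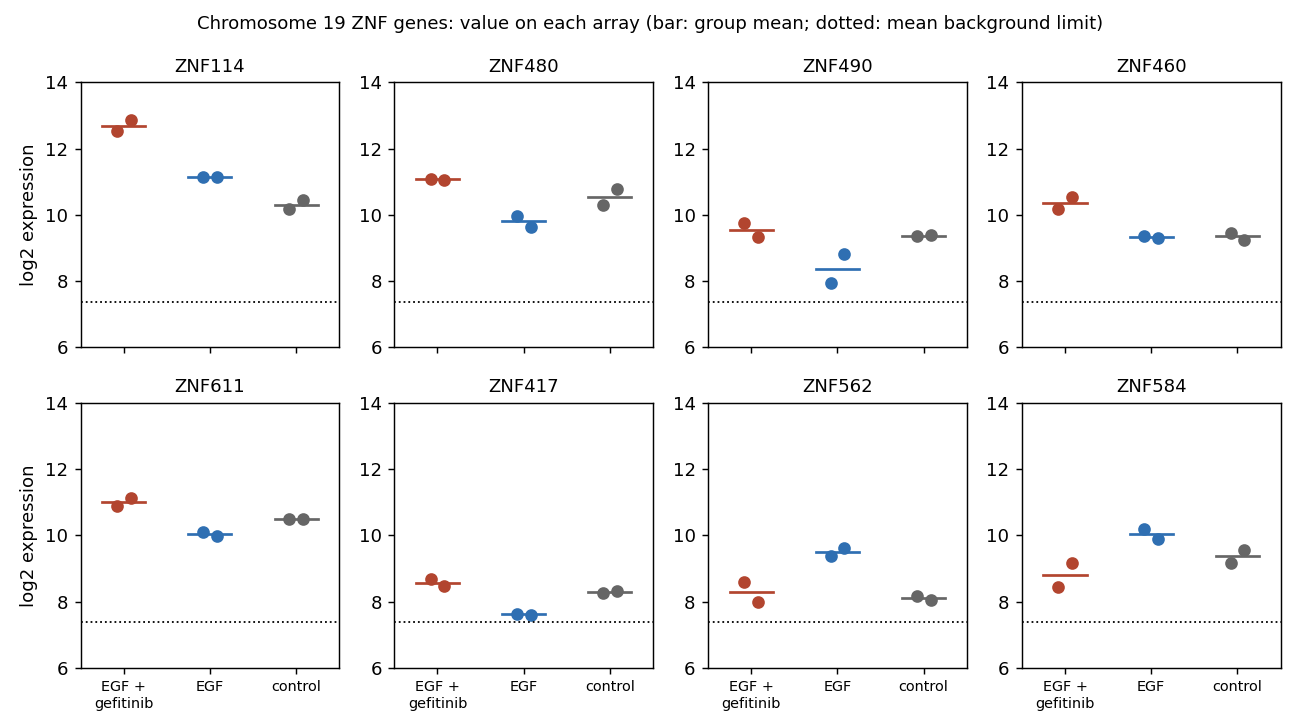
Log2 expression of 8 chromosome 19 ZNF genes on each array, with EGF plus gefitinib cells left of EGF cells and control cells; points are single arrays and levels are not to be compared between genes. ZNF114 lay at 12.52 and 12.85 in EGF plus gefitinib cells, above both other groups, whereas ZNF562 was highest in EGF cells, at 9.39 and 9.60.

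Above the limit, 2 members were called lower. ZNF584 was 8.44 and 9.16 in EGF plus gefitinib cells, 10.20 and 9.90 in EGF cells, and 9.18 and 9.55 in control cells, a change of -1.25 ± 0.28 with gefitinib (limma adjusted p = 0.0223). ZNF562 was 8.61 and 7.98 in EGF plus gefitinib cells, 9.39 and 9.60 in EGF cells, and 8.16 and 8.06 in control cells, a change of -1.20 ± 0.24 (limma adjusted p = 0.0142). For ZNF562 the EGF cells stood above the other groups, which overlapped. Both calls were lost without either EGF array, and that of ZNF584 also without EGF plus gefitinib array 1 and that of ZNF562 without EGF plus gefitinib array 2.

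Called members at or below the limit numbered 21. Of these, 14 were higher with gefitinib (7.22% of the 194 dim members, against 4.48% of all dim probe sets) and 7 were lower (3.61%, against 3.27%). ZNF358 was 7.49 and 7.30 in EGF plus gefitinib cells, 5.84 and 6.10 in EGF cells, and 7.70 and 7.37 in control cells, close to the limit in 2 groups and well below it in the EGF group. Its fitted change was 1.42 ± 0.21 (limma adjusted p = 0.00412) and was called without each array in turn, while the fold it supports is at least 1.01. ZNF548 followed the same pattern, at 7.79 and 7.22 in EGF plus gefitinib cells, 5.88 and 6.52 in EGF cells, and 7.60 and 7.22 in control cells.

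ZNF554, ZNF446 and ZNF383 did not leave the negative-control range in either group, had fitted changes of 1.31, 1.12 and 1.11, and carry no fold. The lower calls were ZNF345 (-1.27), ZNF433 (-0.99), ZNF101 (-0.94), ZNF57 (-0.90), ZNF625 (-0.82), ZNF567 (-0.65) and ZNF155 (-0.63), all on probe sets within or next to that range. Since a dim probe set follows background as well as transcript, these calls describe signal and not a level of the named RNA.

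Of the 43 members above the limit 18 (41.9%) were called higher and 2 (4.65%) lower, against 15.3% higher and 19.5% lower of all 8646 probe sets above the limit. The 43 were chosen by a mean that includes the EGF plus gefitinib arrays, so these counts only describe them. ZNF211, ZNF304, ZNF350 and ZNF616, all called higher, were at or below the limit on both EGF arrays, and ZNF616 also on both control arrays. Of the 30 members above the limit on all 6 arrays, 14 (46.7%) were called higher and 2 (6.67%) lower, with a median change of 0.55. The share of all probe sets called under that stricter filter was not computed, so these counts have no background beside them. For the 43 the median log2 change was 0.48, with quartiles of 0.21 and 0.87, and 35 of 43 were above 0. The arrays of the groups did not overlap for 28 members that were higher (65.1%, against 37.3% of all probe sets above the limit) and for 8 that were lower (18.6%, against 39.8%). Leaving out EGF array 1 left 2 higher calls (4.65%, against 7.04%) and leaving out EGF array 2 left 3 (6.98%, against 7.17%), while the median stayed between 0.48 and 0.60 in all 6 refits.

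Other sets above the limit moved less or the other way. The 80 ZNF genes on other chromosomes above the limit had a median change of 0.29, with 14 called higher and 8 lower. The 357 other chromosome 19 genes above the limit had a median of -0.18, with 27 called higher and 83 lower. Whether the members differed from the ZNF genes elsewhere was not tested, since genes are not replicates.

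**Figure D2:**
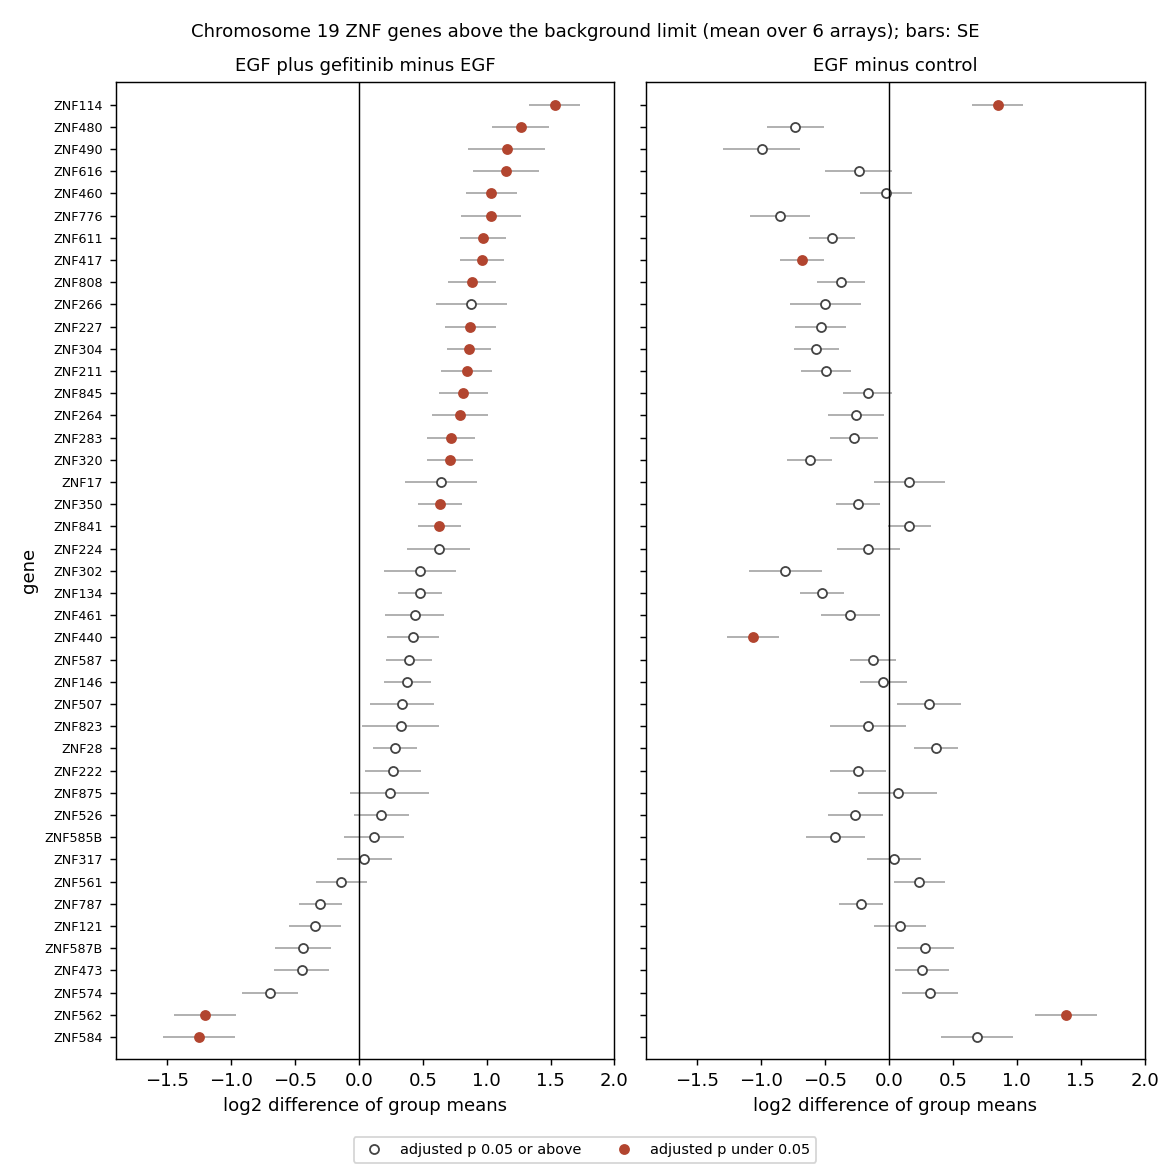
Log2 difference of group means for the 43 members above the background limit, EGF plus gefitinib minus EGF in the left panel and EGF minus control in the right; bars are standard errors. ZNF114 is the highest at 1.53 and ZNF584 the lowest at -1.25 in the left panel, where 35 of 43 members lie above 0.

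Genes of like level did not show the shift of the brighter members. Each member was set against the other named genes in the same bin of 0.5 log2 units of mean level over the 6 arrays. For all 237 members the median difference from the bin was 0.12, with 140 members above their bin's median and 97 below. For the 43 above the limit the members' median was 0.48 and that of their bins 0.01, the median difference was 0.55, and 35 were above and 8 below. For the 194 at or below the limit the difference was 0.07.

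The members' median per bin varied in sign at low levels and was above that of other genes in every bin shown from 5 upward. In the bins from 2.5 to 5 the members' medians ran from -0.20 to 0.07 and those of other genes from 0.03 to 0.08, with the members lowest in the bins from 2.5 to 3 (-0.20, against 0.03) and from 4 to 4.5 (-0.20, against 0.08). From 5 to 7 they ran from 0.11 to 0.24 for members and from 0.02 to 0.09 for other genes. From 7 to 9 they ran from 0.26 to 0.48 for members and from -0.07 to 0.07 for other genes. Bins above 9 held 2 to 4 members each, too few for a trend.

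**Figure D3:**
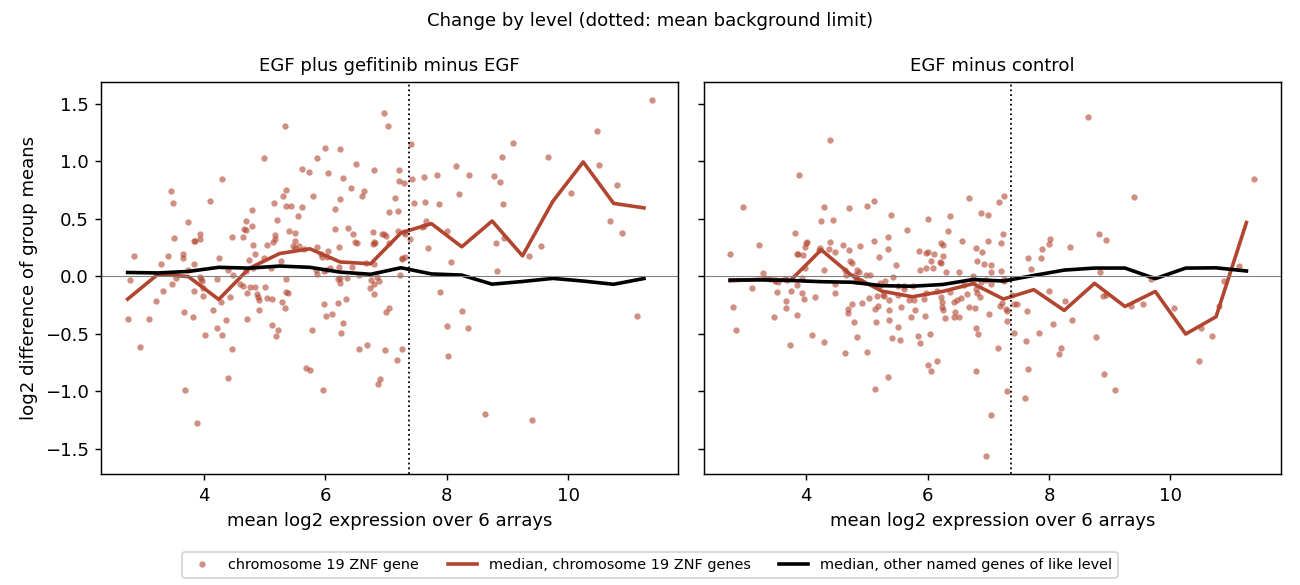
Change against mean log2 level over the 6 arrays for the 237 members (points), EGF plus gefitinib minus EGF on the left and EGF minus control on the right; lines are medians per level bin for members and for other named genes, and the dotted line is the mean background limit of 7.38. In the left panel the members' line lies below that of other genes in the bin from 4 to 4.5 (-0.20 and 0.08) and above it in the bin from 7 to 7.5 (0.38 and 0.07).

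EGF was set against control to ask what stimulation changed in starved cells, and few members were called. ZNF562, ZNF30, ZNF345 and ZNF114 were higher, and ZNF358, ZNF548, ZNF440, ZNF681, ZNF799 and ZNF417 were lower. These 10 calls are 4.22% of the members (1.69% higher, 2.53% lower), below the 11.9% called among all probe sets (6.61% higher, 5.3% lower). Most members are dim, and dim probe sets were called less often. Of the 194 members at or below the limit 3.09% were called, against 4.76% of all probe sets at or below it. At an unadjusted p under 0.05, 15 members (6.33%) were higher and 29 (12.2%) lower, against 13.8% and 12.7% of all probe sets. The median change was -0.08 over the members and -0.03 over all probe sets.

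ZNF562 rose by 1.38 ± 0.24 with EGF (2.61-fold; limma adjusted p = 0.0136), from the arrays given above. ZNF114 rose by 0.85 ± 0.20 (1.80-fold; limma adjusted p = 0.037), and ZNF417 fell by 0.68 ± 0.18 on the log2 scale (1.60-fold lower; limma adjusted p = 0.0483). ZNF440 was 7.13 and 7.08 in EGF cells, both below the limit, and 8.35 and 7.99 in control cells, so that it was at least 1.73-fold lower with EGF (limma adjusted p = 0.0187). ZNF681 was 6.89 and 6.52 in EGF cells and 7.77 and 7.64 in control cells, at least 1.25-fold lower (limma adjusted p = 0.0201).

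ZNF358 was called lower with EGF (fitted change -1.57 ± 0.21, limma adjusted p = 0.0051), with at least a 1.12-fold difference, and was called without each array in turn. ZNF548 was at least 1.02-fold lower (limma adjusted p = 0.0424). ZNF30, ZNF345 and ZNF799 lay below the limit on all EGF and control arrays and carry no fold. Most calls in this comparison did not hold without an EGF array or a control array, and fewer of all probe sets were called in those refits. The median change of the members lay between -0.10 and -0.03 in those refits.

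Among the 43 members above the limit, 2 were called higher and 2 lower (4.65% each). Of all probe sets above the limit 22.5% were called, 12.9% higher and 9.58% lower. The lower count depended on the setting. With dim probe sets left out of the fit 12 of the 43 were called lower (27.9%, against 19.4% of all probe sets tested). With a trended, robust variance model 7 of the 43 were called lower. Under that model the share of all probe sets called lower also rose, from 5.3% to 9.14%. It was not computed for all probe sets above the limit. The median change of the 43 was -0.24, and 29 of 43 were below 0. Genes of like level had a median of 0.05, and the median difference from them was -0.23, with 13 members above and 30 below. The median over the 43 lay between -0.25 and -0.17 when any 1 array was left out.

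EGF plus gefitinib was also set against control, to compare cells given both agents with unstimulated ones. ZNF114 was 5.21-fold higher (change 2.38 ± 0.20, limma adjusted p = 0.0069) and ZNF460 was 2.02-fold higher (change 1.01 ± 0.20, limma adjusted p = 0.0428). ZNF780A was 7.72 and 8.01 in EGF plus gefitinib cells, 6.87 and 7.20 in EGF cells, and 6.76 and 6.74 in control cells, and was at least 1.49-fold higher than in control cells (limma adjusted p = 0.0347). These 3 calls are 1.27% of the members, against 3.89% of all probe sets (2.19% higher, 1.7% lower), and 0 members were called lower by limma, with 29 higher (12.2%, against 10.7% of all) and 10 lower (4.22%, against 10.1%) at an unadjusted p under 0.05.

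Each of these calls was lost in some or all of the 6 refits that left out 1 array. Few if any of all probe sets were called in those refits, so the losses do not set these genes apart. The change ran from 2.21 to 2.55 for ZNF114, from 0.84 to 1.19 for ZNF460 and from 0.97 to 1.26 for ZNF780A. The median change was 0.10 over the members and 0.01 over all probe sets. Among the 43 above the limit 2 were called higher and 0 lower by limma, against 4.01% and 3.16% of all probe sets above it. At an unadjusted p under 0.05, 13 (30.2%) were higher and 2 (4.65%) lower, against 15.8% and 16.9%. Their median change was 0.28, with 32 above 0, and the median difference from genes of like level was 0.27.

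The 3 comparisons share arrays, the EGF arrays in the first 2 and the control arrays in the last 2, so their values are not independent and no correlation between them is given. Seen per array, the 43 members above the limit had a median deviation from their own 6-array mean of 0.27 and 0.29 on the EGF plus gefitinib arrays, -0.27 and -0.28 on the EGF arrays, and -0.02 and -0.03 on the control arrays. The arrays of each group lay close together and the groups apart. Over all 8646 probe sets above the limit the same quantity stayed between -0.02 and 0.02.

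**Figure D4:**
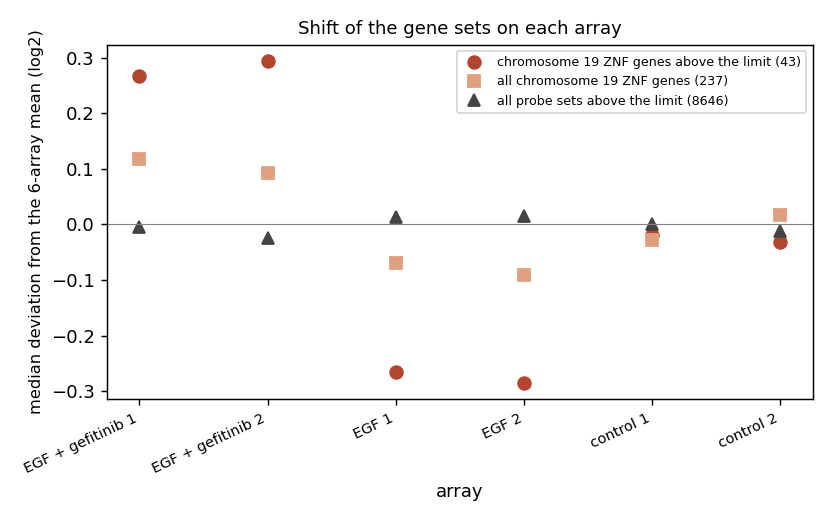
Median deviation from the 6-array mean (log2) on each array, EGF plus gefitinib arrays left of EGF and control arrays, for the 43 members above the background limit (circles), all 237 members (squares) and all 8646 probe sets above the limit (triangles). The circles lie at 0.27 and 0.29, -0.27 and -0.28, and -0.02 and -0.03, and the triangles near 0.

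The members lie in clusters, and these differed in how many members were detected. In RefSeq gene order, 172 of the 232 coding members fell into 6 runs of at least 8 members with at most 2 other coding genes between neighbours. The run from ZNF101 to ZNF254, which includes ZNF91, ZNF93 and ZNF675, held 33 members of which 0 were above the limit. The run from ZNF264 to ZNF8 held 36, of which 10 were above it, and the run from ZNF577 to ZNF331 held 35, of which 9 were above it.

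Those last runs also held many of the higher calls with gefitinib. In the run from ZNF264 to ZNF8, with ZNF460, ZNF304, ZNF776 and ZNF417, 9 members (25%) were called higher by limma and 0 lower in EGF plus gefitinib against EGF cells, where 8.86% of all probe sets were higher and 9.81% lower. Its median change was 0.38. In the run from ZNF577 to ZNF331, with ZNF480, ZNF611, ZNF616, ZNF808 and ZNF845, 9 (25.7%) were higher and 0 lower, with a median of 0.30. The run from ZNF283 to ZNF180, with ZNF227, had 3 higher (15%), 1 lower (5%) and a median of 0.33.

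The other runs had medians near 0. The run from ZNF627 to ZNF791, with ZNF490 and ZNF440, had 1 higher (4.17%) and 2 lower (8.33%) calls and a median of 0.12. The run from ZNF565 to ZNF573 had the same counts of 24 members and a median of 0.03, and the run from ZNF101 to ZNF254 had 2 higher (6.06%), 1 lower (3.03%) and a median of 0.05. All of these shares are below those of all probe sets. The runs with low medians held 0 to 4 members above the limit, and the run from ZNF283 to ZNF180, with a median of 0.33, also held 4. The part of signal level in the order of the runs was not tested. Close paralogs can share probe sequence, the probe sequences were not used here, and the read-through entries ZNF625-ZNF20 and ZNF816-ZNF321P overlap other members. Calls within a run are therefore not independent of each other.

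**Figure D5:**
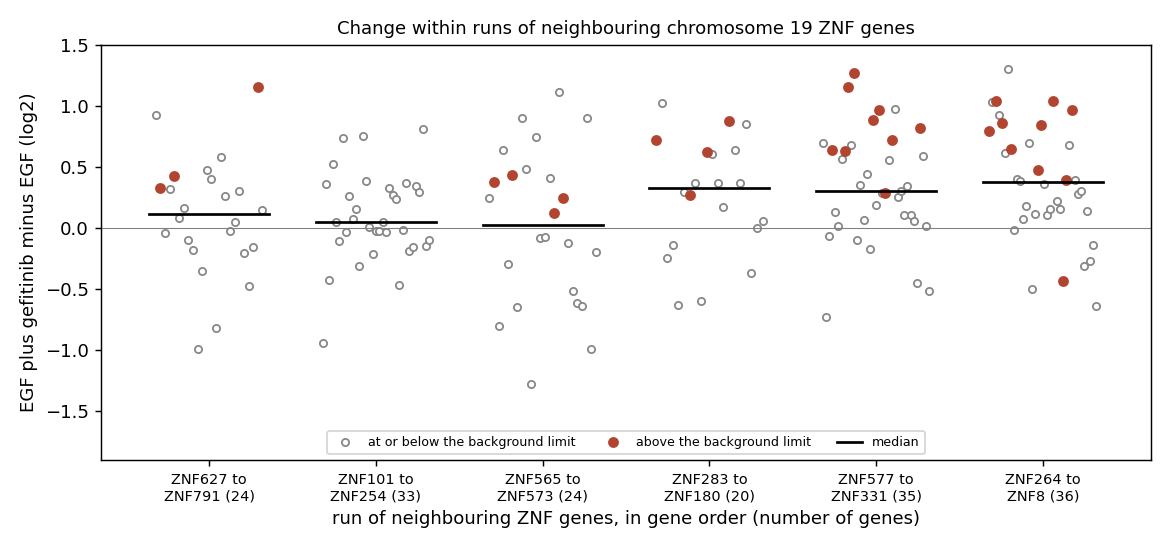
Log2 change, EGF plus gefitinib minus EGF, of every member in the 6 runs of neighbouring genes, in gene order within each run; filled points are members above the background limit, open points those at or below it, and black bars are medians. The run medians go from 0.03 (ZNF565 to ZNF573) to 0.38 (ZNF264 to ZNF8).

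Promoter windows were found for 207 of the 237 members, and for 14250 named genes in all. The ETS motif CCGGAAGT, searched on both strands, was in 21.3% of members' windows, 14.5% of those of ZNF genes on other chromosomes, 4.13% of those of other chromosome 19 genes and 6.24% of all. The ZNF143 motif ACTACANNT was in 15.9% of members' windows, against 4.23% of all. SP/KLF was in 24.6% of members' windows and 23% of all. Members' windows had a median GC content of 59.7%, against 63% over all windows.

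The motifs followed the runs. In the run from ZNF264 to ZNF8, 20 of 33 windows held the ETS motif, in the run from ZNF283 to ZNF180, 11 of 16 held the ZNF143 motif, and in the run from ZNF577 to ZNF331, 13 of 28 held SP/KLF. SP/KLF was also in 13 of 23 windows of the run from ZNF627 to ZNF791, where the median change was 0.12. Of the 9 called members of the run from ZNF577 to ZNF331, 7 had a window and 6 of these held SP/KLF. Over 21 pairs of these 7 windows identity ran from 48% to 83.4%, with a median of 56%. The identity of unrelated windows was not computed. The most alike were ZNF611, ZNF808 and ZNF845 with each other, and ZNF616 with ZNF841 (74.5%), so matches in those windows may not be separate observations of a motif.

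With gefitinib against EGF, the 44 members with an ETS match had a median change of 0.28 and the 163 without one 0.15. The 33 with a ZNF143 match had 0.06 and the 174 without one 0.17. The 51 with an SP/KLF match had 0.15 and the 156 without one 0.18. Among members above the limit the order for ETS was the opposite (0.44 for 11 with it, 0.55 for 26 without it), and for SP/KLF the medians were 0.72 for 13 with it and 0.41 for 24 without it.

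The remaining motifs were FOXO (TGTTTAC), EGR (GCGTGGGCG), NRF1 (GCGCNTGCG) and the AP-1, E-box and CRE motifs spelled out above. They were in 1.45%, 0.966%, 12.6%, 5.8%, 4.83% and 3.38% of members' windows, in that order, against 2.58%, 1.13%, 11.3%, 5.75%, 8.69% and 2.62% of all windows. No motif's letters overlapped those of another motif in the printed windows.

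The partners that KRAB zinc finger proteins recruit were measured for 20 of 21 genes listed, and 19 were above the limit. TRIM28, the corepressor bound by the KRAB domain, was 12.69 and 12.93 in EGF plus gefitinib cells, 12.65 and 12.50 in EGF cells, and 12.81 and 12.81 in control cells, and was not called in any comparison. In EGF plus gefitinib against EGF cells, 1 of the 20 (5%) was called higher and 3 (15%) lower, with a median of -0.04, both shares below the 15.3% and 19.5% of all probe sets above the limit. ATF7IP, which stabilises SETDB1, was 11.97 and 11.71 in EGF plus gefitinib cells, 10.07 and 10.41 in EGF cells, and 11.43 and 11.56 in control cells, so that the EGF cells stood apart below the other groups.

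ATF7IP was 3.03-fold higher with gefitinib (change 1.60 ± 0.20, limma adjusted p = 0.00255) and 2.38-fold lower with EGF than in control cells (change -1.25 ± 0.20, limma adjusted p = 0.0106). The 3 that fell with gefitinib were HDAC2 and MTA2, both of the NuRD deacetylase complex, and UHRF1, which guides maintenance DNA methylation, with changes of -0.94, -1.59 and -1.69 (limma adjusted p = 0.00955, 0.00155 and 0.00179). MTA2 and UHRF1 were also lower than in control cells, by -1.08 and -1.34, while in EGF against control cells ATF7IP was the only one of the 20 called. The list was chosen with earlier results of these data known.

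Other genes checked the treatment and the cells. FOSL1, an early target of EGF signalling, was 10.21 and 9.55 in EGF plus gefitinib cells, 13.88 and 13.87 in EGF cells, and 9.95 and 9.79 in control cells. DUSP6, a feedback phosphatase of ERK, was 11.23 and 10.90 in EGF plus gefitinib cells, 12.58 and 12.42 in EGF cells, and 8.36 and 8.56 in control cells, so that with gefitinib it was below EGF cells but still 2.61 above control cells on the log2 scale (limma adjusted p = 0.00618). EGR1, an immediate early factor, was not called in EGF against control cells (change 0.10, limma adjusted p = 0.894) and was lower with gefitinib than in control cells (change -2.02, limma adjusted p = 0.0291). TXNIP and EGFR were called higher in EGF plus gefitinib against EGF cells. Of the A431 markers, EGFR, KRT5, KRT14 and CDH1 were above the limit on all 6 arrays, and KRT17 and TP63 were not matched. Of the markers of other cells, 1 of 4 fibroblast genes (LUM), 1 of 4 leukocyte genes (LCP1) and 0 of 4 endothelial genes were above the limit by mean. LCP1, CDH5, LUM and DCN were called in at least 1 comparison, and their part in the members' changes was not tested. Arrays of 1 group correlated at 0.991 to 0.994 over all transcript probe sets, and arrays of different groups at 0.973 to 0.987, and no array stood apart.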

How the data were processed

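Total RNA of 6 A431 samples was biotin-labelled and hybridised to 1 Affymetrix array each, per the labels. The authors' deposited values are log2 values, and the submitters' processing notes name Transcriptome Analysis Console as the program. Its version, background correction, summarization and normalization are not stated in the sources used here. The scale was read from the values (1.58 to 18.9), which were used as deposited, and 0 columns were left unused.

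Of 24351 probe sets, 2903 controls were left out and 21448 transcript probe sets were tested with no filter. The platform annotation named 1 gene for 17709 and did not list 3739. Of 1458 chromosome 19 probe sets 1256 were named. Groups were compared with limma 3.58.1 (lmFit, eBayes) in R 4.3.3 with jsonlite 2.0.0. All 6 arrays entered 1 fit with 3 group means, leaving 3 residual degrees of freedom beside 4.22 from the prior. P-values were two-sided, with Benjamini-Hochberg adjustment over all 21448 and calls at an adjusted p under 0.05. The script was tested on simulated data. The number of arrays limits the precision.

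The genes named in each comparison were up to 10 rises and 10 falls, the largest among called members whose groups did not overlap, beside a list of well-studied members, called corepressor partners and treatment checks. Others were named from the called members above the limit after their values were seen. Members, lists and tests were chosen with earlier results of these data known, and the split at the background limit within each comparison was added after seeing the data. Promoter windows (RefSeq, GRCh38.p14) were matched by gene identifier and aligned with Biopython 1.88 in Python 3.11.15. Windows of 30 members were not matched, and protein features were not analysed here. Same-numbered samples did not deviate together (correlations of -0.05, 0.05 and -0.00073 between groups), so the replicate number is no block in the design. Alternatives were other normalizations, filters, variance models, fits and left-out arrays.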

Additional observations from a re-analysis of the deposited data

How the results depend on the processing

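Directions of the members' medians and like-level differences were the same under every alternative run except that the median difference from genes of like level in EGF against control cells (-0.02) lay between -0.060 and 0.00382 when 1 array was left out. When 1 array was left out, EGF plus gefitinib against EGF gave 5 to 24 higher and 1 to 7 lower calls, 2 to 12 and 0 to 2 among members above the limit, medians of 0.16 to 0.21 and, above the limit, 0.48 to 0.60, and 0.11 to 0.15 against like level. EGF against control gave 0 to 4 higher and 1 to 6 lower calls, 0 to 2 each above the limit, and medians of -0.10 to -0.033 and -0.25 to -0.17. EGF plus gefitinib against control gave 0 to 1 higher and 0 to 1 lower, 0 to 1 and 0 to 0 above the limit, medians of 0.067 to 0.12 and 0.24 to 0.30, and 0.060 to 0.12 against like level. In every refit without 1 array, fewer of all probe sets were called too, both higher and lower, in each comparison. A drop in the members' counts in those refits therefore does not set the members apart. Leaving out dim probe sets tests fewer genes. For EGF against control it gave 2 higher and 12 lower calls, a median of -0.24 and a like-level difference of -0.23. For EGF plus gefitinib against EGF it gave 22 higher (51.2% of the members tested) and 3 lower (6.98%), 0.48 and 0.53. For EGF plus gefitinib against control it gave 9 higher, 2 lower, 0.28 and 0.27. Of all 8646 probe sets then tested, 24% were called higher and 19.4% lower for EGF against control. The shares were 25.3% and 28.5% for EGF plus gefitinib against EGF, and 14% and 15% for EGF plus gefitinib against control. With the 99th percentile as limit, 8 members in place of 43 were above it. Calls were then 1 higher and 3 lower (median -0.26) for EGF against control, against 27.5% and 23.6% of all 4845 probe sets tested. EGF plus gefitinib against EGF gave 7 higher and 0 lower (0.76), against 29.1% and 33% of all. EGF plus gefitinib against control gave 5 higher (0.49), against 18.5% of all. Quantile normalization gave medians of -0.029, 0.13 and 0.075 for the 3 comparisons (EGF against control, EGF plus gefitinib against EGF, EGF plus gefitinib against control), 0.56 and 0.26 above the limit in the last 2, 1 higher call above the limit for EGF against control and 1 lower call for EGF plus gefitinib against control. Median centring gave -0.023 and 0.10 for the first 2 comparisons, -0.18, 0.41 and 0.27 above the limit, 1 lower call above the limit for EGF against control and 1 lower call for EGF plus gefitinib against control. A trended, robust variance model gave 12 lower calls for EGF against control (5.06%, against 9.14% of all probe sets), with 7 above the limit. For EGF plus gefitinib against control it gave 10 higher (4.22%, against 6.4% of all) and 3 lower (1.27%, against 6.55%). Of those 10, 7 were above the limit (16.3%, against 13% of all probe sets above it). A fit on only the arrays compared gave 1 higher call for EGF plus gefitinib against control (0.422%, against 0.676% of all probe sets), also above the limit. With the replicate number as a block, which does not pair these samples, EGF plus gefitinib against EGF gave 25 higher and 6 lower calls. These were 10.5% and 2.53% of members, against 7.67% and 8.6% of all probe sets. With that block EGF plus gefitinib against control gave 1 higher, also above the limit, and EGF against control 1 lower above the limit. For single genes, 1075 values were unchanged in direction and call, 163 lost a call, 17 gained one, 17 moved without a call and 0 reversed. The cause of these changes was not tested, and some of the alternatives also used fewer genes or arrays. Signal close to the negative controls limits what the 194 dim members can show, and 2 arrays per group limit all calls.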
